A study of Mus musculus with 9 samples.

Results

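Liver expression at the higher and the lower dose of a rice bean extract was compared directly, VE100 against VE50, in leptin-deficient ob/ob mice. VE stands for an extract of Vigna umbellata. The comparison used 6 of the 9 arrays of the series, chosen by their titles alone: 3 arrays of ob/ob mice given 100 mg/kg VE and 3 arrays of ob/ob mice given 50 mg/kg VE. No array of vehicle-treated mice entered, so each value below is a difference between doses and says nothing of a change from the untreated obese liver.

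Both groups were male C57BL/6JHamSlc-ob/ob mice, which lack functional leptin, overeat and become obese. They were 6 weeks old when obtained, were given VE by oral gavage for 42 days, ate standard chow and were anaesthetised with isoflurane at the end. Liver RNA was hybridised to Clariom S mouse arrays, which carry 1 probe set for most genes. The labels call the arrays of a dose replicates without saying that they come from separate animals, so p-values measure the spread between these samples, which may be technical. The hour of sampling and any fasting before it are not given in the sources used here.

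In the leptin-deficient liver, high insulin and high carbohydrate supply drive fatty acid synthesis through the transcription factors SREBP-1c and ChREBP, and fat accumulates in hepatocytes. Insulin also silences genes that the transcription factor FOXO1 switches on in fasting. The hepatic clock, a loop in which BMAL1 with CLOCK or NPAS2 activates its own repressors, times much of this metabolism over the day. Kupffer cells, the resident macrophages of the liver, are a minor cell type of the tissue, and in bulk RNA fewer cells of a type and less RNA per cell cannot be told apart.

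The sheet of log2 signals held 22206 probe sets, of which 21340 carry a single gene symbol and are described here. Hepatocyte genes marked all 6 arrays: Alb, Ttr and Ahsg lay between 19.82 and 19.93, near the highest signal of the sheet (19.93), and Hnf4a between 10.61 and 11.41. Markers of pancreas (Ins2), skeletal muscle (Acta1), fat (Adipoq), bile ducts (Krt19) and T cells (Cd3e) ran from 2.37 to 4.64 and lay above the 95th percentile of the array's negative controls on 0 of 6 arrays. Further markers had higher signals, also above that percentile on 0 arrays: Prss2 (5.08 to 5.90) and Cela1 (4.47 to 5.20) of pancreas and Ckm (5.73 to 6.68) of muscle. In the wider lists used below, 4 of 11 fat cell and 2 of 13 cholangiocyte genes lay above it on all 6 arrays. Across probe sets, arrays of the same dose correlated at 0.982 to 0.987 and arrays of different doses at 0.981 to 0.989, so the genome-wide profile did not separate the doses. The array VE50 3 correlated with VE100 2 and VE100 3 at 0.989 each, against 0.986 with VE50 1 and 0.987 with VE50 2. The median of all signals ran from 5.07 to 5.18 on the VE100 arrays and from 5.09 to 5.18 on the VE50 arrays. The gap between positive and negative control probe sets was smallest on VE100 1, at 3.12, against 3.46 and 3.42 on the other VE100 arrays and 3.38 to 3.53 on the VE50 arrays.

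No gene separated the doses after adjustment over all probe sets. In the limma fit, 0 of 22206 probe sets had a Benjamini-Hochberg adjusted p under 0.05. The smallest adjusted p was 0.951, shared by every gene named below whose unadjusted p was under 0.05. The study's own criterion, a fold above 1.1 at an unadjusted p under 0.05, was passed by 1119 probe sets (5.04%), where 1110.3 would lie under that p if no probe set differed. Of these, 519 were higher in VE100 (2.34%) and 600 were lower (2.7%). Among the single-symbol probe sets 1078 passed (5.05%), 506 higher (2.37%) and 572 lower (2.68%). The signals of the 3 arrays of one dose lay wholly above those of the other dose for 2133 single-symbol probe sets (10%). A gene past the criterion is therefore described below by its values and not counted as changed. Counts of list members past the criterion are likewise to be read beside these shares.

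Differences between the doses were mostly small. The median size was 0.18 on the log2 scale, and the 5th and the 95th percentile over the single-symbol probe sets lay at -0.49 and 0.45. The standard error of a difference had a median of 0.24 and the 95% interval a median half-width of 0.54, so a smaller dose effect on a typical gene was not detectable with 3 arrays per dose. Differences beyond 2-fold were seen for 116 single-symbol probe sets, 36 higher and 80 lower in VE100, and 85 of the 116 passed the criterion.

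The split of directions differed between brighter and dimmer probe sets. Among the 10640 single-symbol probe sets above the median signal, 204 past the criterion were higher in VE100 (1.92%) and 364 were lower (3.42%). Among the 10700 at or below it, 302 were higher and 208 lower. Over the brighter probe sets 55.4% of all differences lay below 0, with a median of -0.03. Over all probe sets the split was 561 higher and 549 lower after quantile normalization, and 553 and 567 after centring each array on its median, against 519 and 600 as deposited.

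**Figure D1:**
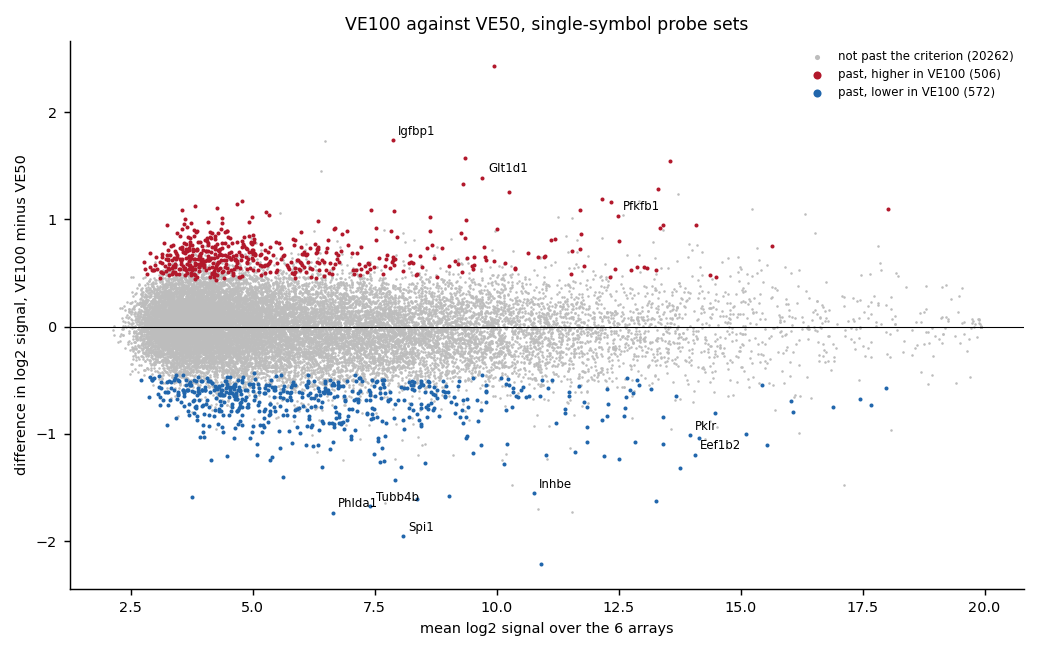
Each point is a single-symbol probe set, with its mean log2 signal over the 6 arrays on the x axis and its log2 difference, VE100 minus VE50, on the y axis. Red marks the 506 probe sets past the study's criterion and higher in VE100, blue the 572 lower in VE100, and grey the rest; past the criterion, the brighter probe sets lie more often below 0 than above it.

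The genes named first are the 15 highest and the 15 lowest differences past the criterion among single-symbol probe sets of above-median signal whose arrays did not overlap between doses. That choice drew from 402 such genes, 144 higher and 258 lower, so the separation of their arrays is a condition of the choice and no further evidence. The boundary was narrow: Prox1, the last gene taken on the higher side, lay at 0.82 and the next, Tmeff2, at 0.81, while on the lower side Arpc4 lay at -1.11 and Cd68 at -1.10. Of the 15 highest, 4 lay above the negative controls' 95th percentile on all 6 arrays and 8 on none, and of the 15 lowest, 4 on all and 6 on none.

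Of the genes chosen by the rule, Igfbp1 had the highest difference. This gene of a secreted insulin-like growth factor binding protein, which insulin represses, had log2 signals of 8.13, 8.94 and 9.13 on the VE100 arrays, against 7.76, 6.63 and 6.60 on the VE50 arrays. The VE100 arrays lay above all VE50 arrays, with VE50 1 nearest to them. The mean was 8.733 ± 0.531 in VE100 and 6.997 ± 0.661 in VE50 (SD, n = 3 each), a log2 difference of 1.74 ± 0.36 (SE; 95% interval 0.93 to 2.55), or 3.33-fold. The limma p was 7.65e-04 unadjusted and 0.951 adjusted. The difference stayed between 1.54 and 2.12 when any 1 array was left out. Igfbp1 lay above the negative controls' 95th percentile on 2 of the 3 VE100 arrays and on 0 of the VE50 arrays.

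The reference promoter of Igfbp1 is shown because FOXO1 is known to bind the insulin response element near its start. The 250 bases upstream of the start (RefSeq, GRCm38.p6, chr11:7197537-7197786, plus strand) hold the core CAAAACA once, in capitals, searched on both strands, 108 bases upstream of the start.

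Igfbp1 promoter: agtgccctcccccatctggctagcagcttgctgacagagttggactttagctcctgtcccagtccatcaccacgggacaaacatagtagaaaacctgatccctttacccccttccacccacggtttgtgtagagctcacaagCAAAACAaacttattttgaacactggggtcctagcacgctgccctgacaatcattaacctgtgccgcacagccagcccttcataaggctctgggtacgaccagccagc

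The same 7 letters occur in 5.56% of 32851 reference promoters of this length, so the match alone does not mark a bound site. Binding was not measured here. Pfkfb1 and Ppp1r3b, genes of glucose handling, lay on the same side. Pfkfb1, the liver form of the enzyme that makes and removes fructose 2,6-bisphosphate and so sets the balance of glycolysis and gluconeogenesis, had 12.67, 13.19 and 13.13 in VE100, against 11.61, 11.98 and 12.30 in VE50. The VE100 arrays lay above the VE50 arrays, VE100 1 nearest to VE50 3, and the log2 difference was 1.03 ± 0.25. Ppp1r3b, which directs protein phosphatase 1 to glycogen, had 12.93, 12.88 and 13.22 in VE100, against 12.54, 12.67 and 12.24 in VE50, a log2 difference of 0.53 ± 0.22. It lost the criterion without VE100 3 (0.42), VE50 1 (0.56) or VE50 3 (0.41).

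Pklr, the liver pyruvate kinase of the last step of glycolysis, pointed the other way. Its log2 signals were 13.11, 13.83 and 13.42 in VE100, against 14.55, 14.39 and 14.46 in VE50. The VE50 arrays lay within 0.16 of each other, all above the VE100 arrays. The mean was 13.45 ± 0.36 in VE100 and 14.47 ± 0.08 in VE50, a log2 difference of -1.01 ± 0.23 (95% interval -1.53 to -0.50). The limma p was 0.0014 unadjusted. With any 1 array left out the difference ran from -1.20 to -0.84, past the criterion each time.

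The Pklr promoter is shown because its carbohydrate response element is the textbook site of ChREBP action. RefSeq gives this gene more than 1 start, and the window upstream of the downstream one (GRCm38.p6, chr3:89136373-89136622, plus strand) holds a match, in capitals, to that element, 170 bases upstream of the start. The element was searched as the half-sites CACGNG and CNCGTG with 5 bases between them, which reads the same on both strands.

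Pklr promoter: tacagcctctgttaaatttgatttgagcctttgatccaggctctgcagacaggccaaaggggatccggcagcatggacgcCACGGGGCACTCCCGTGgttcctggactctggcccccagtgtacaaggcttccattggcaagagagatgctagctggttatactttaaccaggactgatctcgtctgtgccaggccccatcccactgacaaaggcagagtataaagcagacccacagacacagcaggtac

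Of 32851 reference promoters of this length 13 hold such a match (0.0396%), and the window of the upstream Pklr start holds none. The gene of ChREBP itself, Mlxipl, had 12.18, 11.91 and 11.36 in VE100, against 10.13, 12.14 and 11.94 in VE50. Its arrays overlapped, VE50 1 lay far below the rest, and the log2 difference was 0.41 ± 0.47 (95% interval -0.64 to 1.47).

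Over the 23 measured genes of glycolysis, gluconeogenesis and glycogen, 9 differences lay above 0 and 14 below, with a median of -0.12. Pfkfb1 and Ppp1r3b were past the criterion on the higher side and Pklr on the lower. Pck1, the first committed enzyme of gluconeogenesis, differed by 0.49 ± 0.23 (95% interval -0.03 to 1.01) and G6pc, which releases free glucose, by -0.22 ± 0.37. Of 23 measured genes of insulin, insulin-like growth factor and growth hormone signalling, 14 lay above 0 and 9 below, with a median of 0.06. Past the criterion were Igfbp1, Bcl6 (0.84 ± 0.34), a transcriptional repressor, and Akt2 (-0.59 ± 0.23), a kinase of insulin signalling. Bcl6 fell short without VE100 1 (0.44), VE50 1 (0.80) or VE50 2 (0.76), and Akt2 without VE100 1 (-0.40), VE50 2 (-0.53) or VE50 3 (-0.56). Irs2, an insulin receptor substrate that FOXO1 also drives, differed by 0.36 ± 0.20 (95% interval -0.09 to 0.81), with its VE100 arrays above its VE50 arrays.

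Fatty acid synthesis genes had lower signal in VE100 almost throughout. Of 19 measured genes 18 differences lay below 0 and 1 above, with a median of -0.64, beside a median of -0.00 over all single-symbol probe sets. Past the criterion were 5 of 19, all lower, set against 5.05% of all single-symbol probe sets. The 5 were Aacs, Acly, Fasn, Elovl5 and Pklr, which is described above and also counted in the glycolysis list. Aacs, which activates acetoacetate for lipid synthesis, had 9.91, 9.97 and 9.13 in VE100, against 10.76, 11.07 and 10.46 in VE50. The doses did not overlap, and the log2 difference was -1.09 ± 0.28.

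Acly, which makes cytosolic acetyl-CoA from citrate, had 15.73, 15.05 and 14.21 in VE100, against 16.83, 16.13 and 15.35 in VE50. Fasn, the fatty acid synthase, had 14.00, 13.52 and 11.80 in VE100, against 14.88, 15.06 and 13.34 in VE50. For both genes VE50 3 lay below the highest VE100 array and VE100 3 was the lowest of all, and the log2 differences were -1.11 ± 0.43 for Acly and -1.32 ± 0.58 for Fasn. Acly lost the criterion without VE100 2 (-1.13), VE100 3 (-0.71), VE50 1 (-0.74) or VE50 2 (-1.09), and Fasn without VE100 2 (-1.53), VE100 3 (-0.67), VE50 1 (-1.09) or VE50 2 (-1.0).

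Elovl5, a fatty acid elongase, had 17.65, 17.74 and 16.55 in VE100, against 17.78, 18.35 and 18.00 in VE50, a log2 difference of -0.73 ± 0.32 without overlap. VE100 3 lay far below the other arrays, and VE100 2 lay just below the lowest VE50 array. Scd1, the stearoyl-CoA desaturase, lay at 19.92 to 19.93 on all 6 arrays, the top of the scale, where no difference could be measured. Acaca, which makes malonyl-CoA, differed by -0.68 ± 0.38 (95% interval -1.54 to 0.17). The list's median per array, taken after centring each gene on its mean over the 6 arrays, was -0.01, 0.00 and -0.54 in VE100, against 0.40, 0.42 and -0.03 in VE50. The doses overlapped on this measure: VE50 3 lay with VE100 1 and VE100 2, and VE100 3 lay apart below. Without VE100 3 the list's median difference was -0.27 with 3 members past, and over the other omissions it ran from -0.83 to -0.58 with 2 to 8 past, the lowest count without VE50 2.

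Neighbouring lipid pathways leaned the same way with few members past the criterion. Of 29 measured genes of triglyceride assembly, lipolysis and lipid droplets 21 lay below 0, with a median of -0.25 and 0 past. That median was -0.027 without VE100 3 and -0.12 without VE50 1, and 3 members passed without VE100 1 or VE100 2. Of 23 genes of cholesterol synthesis and uptake 19 lay below 0, with a median of -0.23, and 1 passed: Fdps, the farnesyl diphosphate synthase, at -0.93 ± 0.34 (-0.61 without VE100 3 and -0.66 without VE50 1, where it did not pass). The cholesterol list's count was 5 without VE50 3 and 0 without VE100 3 or VE50 1. Genes of fatty acid oxidation under PPARα split, with 14 above and 10 below 0 and a median of 0.01. Cyp4a14, an omega-hydroxylase and sensitive PPARα target, had 17.71, 19.49 and 18.50 in VE100, against 17.61, 17.01 and 17.79 in VE50. VE100 2 was the highest array, VE100 1 lay below VE50 3, and the log2 difference of 1.10 ± 0.41 fell short of the criterion without VE100 2 (0.64) or VE50 2 (0.87). Bile acid synthesis and transport genes had a median of 0.10, with 0 of 19 past, and 5 passed without VE50 3.

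Clock genes past the criterion lay on both sides. Of 23 measured genes of the clock and its output 7 passed, 4 higher and 3 lower, set against 5.05% of all single-symbol probe sets. Arrays did not overlap between the doses for 10 of the 23, against 10% of all. Differences lay above 0 for 9 and below for 14, with a median of -0.22, which was 0.083 without VE100 1. Of the 23 genes 8 lay above the negative controls' 95th percentile on all 6 arrays and 11 on none. Dbp, an output transcription factor that the BMAL1 and CLOCK pair activates directly, had 12.16, 12.42 and 12.30 in VE100, against 13.11, 13.73 and 13.28 in VE50. The 2 sets of arrays lay 0.69 apart at their nearest, and the log2 difference was -1.08 ± 0.23 (95% interval -1.59 to -0.57), from -1.21 to -0.90 with any 1 array left out.

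Nr1d1, which encodes the repressor REV-ERBα and is activated by the same pair, had 6.46, 6.65 and 5.74 in VE100, against 7.11, 7.38 and 6.91 in VE50. Bhlhe40, a repressor also named DEC1, had 12.43, 12.69 and 12.84 in VE100, against 13.02, 13.45 and 13.11 in VE50. The VE100 arrays lay below the VE50 arrays for both genes, by -0.85 ± 0.27 for Nr1d1 and -0.54 ± 0.22 for Bhlhe40.

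The genes on the higher side are among those that REV-ERBα is known to repress. Arntl, the gene of BMAL1, had 5.02, 5.36 and 5.19 in VE100, against 3.94, 4.99 and 4.39 in VE50. Npas2, a partner of BMAL1, had 5.60, 5.49 and 5.88 in VE100, against 4.88, 5.12 and 5.14 in VE50. Nfil3, a repressor that competes with DBP for the same DNA elements, had 6.71, 7.37 and 6.73 in VE100, against 6.00, 6.10 and 6.28 in VE50. All VE100 arrays lay above the VE50 arrays for these genes, by 0.75 ± 0.28 for Arntl, 0.61 ± 0.21 for Npas2 and 0.81 ± 0.24 for Nfil3.

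Cry1, a repressor of the BMAL1 complex whose gene peaks late in the cycle, had 7.46, 7.54 and 8.01 in VE100, against 7.30, 7.02 and 6.94 in VE50, a log2 difference of 0.58 ± 0.23. Clock itself differed by -0.01 ± 0.20 (95% interval -0.47 to 0.44), Per1 by 0.39 ± 0.32 and Per2 by -0.29 ± 0.25, with overlapping arrays for each. Npas2 lost the criterion without VE100 3 (0.50) or VE50 1 (0.53), whereas Dbp, Nr1d1 and Nfil3 kept it under each omission. The list's count ran from 5 to 8 over the 6 omissions. Arntl, Npas2, Nfil3 and Nr1d1 lay above the negative controls' 95th percentile on 0 of 6 arrays, and Dbp on all 6. The hour of sampling of each animal is not given in the sources used here, and its part in these values was not tested.

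**Figure D2:**
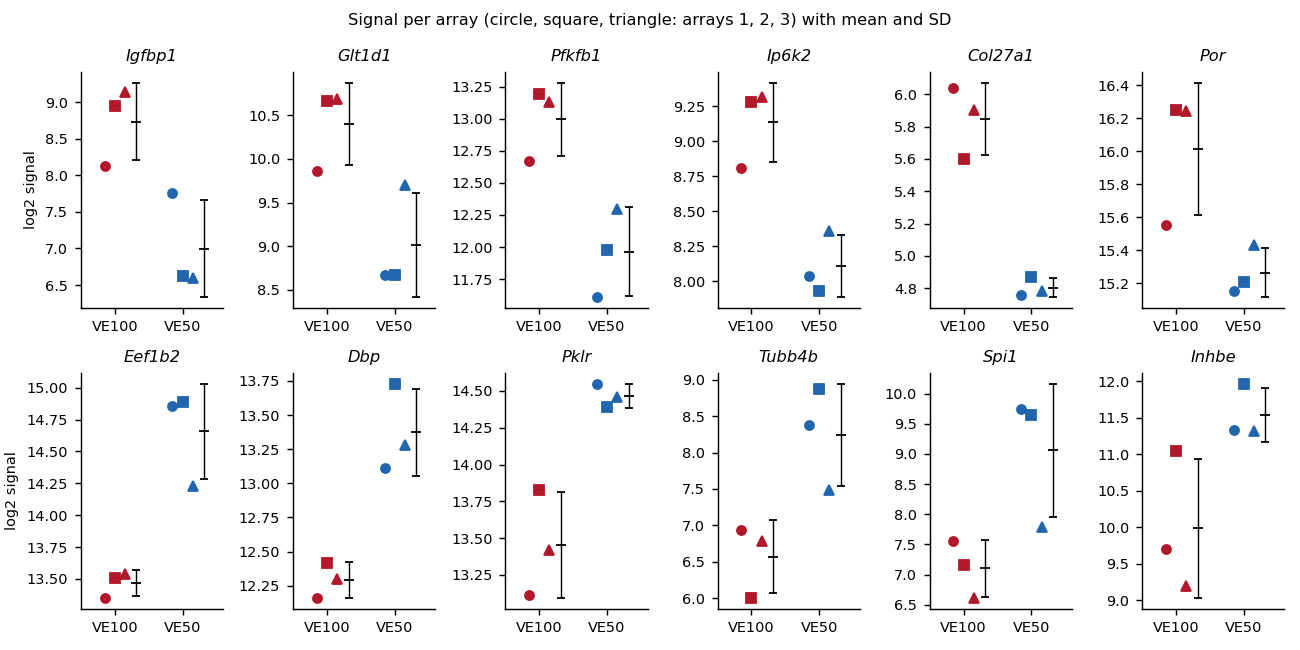
Each panel shows a gene's log2 signal on the 3 VE100 arrays (red, left) and the 3 VE50 arrays (blue, right), with circle, square and triangle for arrays 1, 2 and 3 and the mean ± SD beside them; each y axis has its own range and does not start at 0. The upper row holds genes higher in VE100, such as Igfbp1 at 8.13 to 9.13 against 6.60 to 7.76, and the lower row genes lower in VE100, such as Dbp at 12.16 to 12.42 against 13.11 to 13.73.

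The other genes with the highest differences had varied roles. Glt1d1, named for a glycosyltransferase domain, had 9.86, 10.66 and 10.69 in VE100, against 8.67, 8.67 and 9.70 in VE50. VE50 3 lay just below VE100 1, and the log2 difference was 1.39 ± 0.34 (95% interval 0.64 to 2.14). Ip6k2, an inositol hexakisphosphate kinase, had 8.81, 9.28 and 9.32 in VE100, against 8.04, 7.93 and 8.36 in VE50, a log2 difference of 1.03 ± 0.23. Col27a1, a fibrillar collagen gene, had 6.04, 5.60 and 5.90 in VE100, against 4.76, 4.87 and 4.78 in VE50. Its VE50 arrays lay within 0.11 of each other and its difference of 1.04 ± 0.21 had a p of 5.13e-04 (limma, unadjusted), but no array put it above the negative controls' 95th percentile.

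Dapk1, a death-associated protein kinase, had 9.72, 9.54 and 10.03 in VE100, against 8.91, 8.97 and 8.94 in VE50, and lay above the negative controls on all 6 arrays. Its log2 difference was 0.82 ± 0.21. Rrp1b, a nucleolar protein gene, had 7.38, 7.50 and 7.25 in VE100, against 6.40, 6.66 and 6.40 in VE50, a log2 difference of 0.89 ± 0.20. Of the remaining genes of this group, Ccdc141, a coiled-coil protein gene, differed by 1.07, Rasal2, a Ras GTPase-activating protein gene, by 0.99, Fam13b and Ypel2 by 0.92 each, and Gpr52, a G protein-coupled receptor gene, by 0.86. Ccdc141, Rasal2, Fam13b, Ypel2 and Gpr52 kept the criterion with any 1 array left out. Efnb1, an ephrin ligand gene, differed by 0.91 (0.61 without VE50 3 and 0.81 without VE100 1, where it did not pass), and Safb2, a nuclear scaffold factor gene, by 0.89 (0.63 without VE100 1 and 0.58 without VE50 1).

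Hepatocyte transcription factor and secreted protein genes gave 3 of 28 past the criterion, set against 5.05% of all single-symbol probe sets, with a median of -0.00. Prox1, a regulator of hepatocyte development, had 11.34, 11.88 and 11.58 in VE100, against 9.93, 11.26 and 11.15 in VE50. VE50 1 lay far below the other VE50 arrays, and the log2 difference of 0.82 ± 0.34 was 0.40 without it. Prox1 also lost the criterion without VE100 2 (0.68) or VE100 3 (0.83). Nr1i3, the gene of the drug-sensing receptor CAR, had 13.86, 14.09 and 13.73 in VE100, against 11.93, 13.01 and 13.89 in VE50. Its doses overlapped at VE50 3, its log2 difference was 0.95 ± 0.41, and it kept the criterion under 1 of 6 omissions, with 0.44 without VE50 1.

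Cebpa, a factor that maintains hepatocyte identity and metabolic gene expression, was lower in VE100. It had 12.08, 11.41 and 11.67 in VE100, against 12.38, 13.10 and 12.29 in VE50, a log2 difference of -0.87 ± 0.28 that passed under each omission. Sgk1, a glucocorticoid-induced kinase gene, had 6.46, 6.70 and 6.45 in VE100, against 7.25, 7.72 and 7.15 in VE50, a log2 difference of -0.84 ± 0.22 without overlap. Sgk1 lay above the negative controls' 95th percentile on no array. It was the 1 member past among 16 glucocorticoid-responsive genes, whose median was 0.03 with 8 above and 8 below 0.

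Por, the reductase that passes electrons to all microsomal cytochromes P450, had 15.55, 16.25 and 16.24 in VE100, against 15.15, 15.21 and 15.43 in VE50. The VE100 arrays lay above, VE100 1 nearest to VE50, and the log2 difference was 0.75 ± 0.25. Of 25 measured cytochrome P450 genes 20 lay above 0, with a median of 0.29, but only Cyp39a1, an oxysterol hydroxylase, passed the criterion (0.91 ± 0.37), and it did not pass without VE100 2 (0.97), VE100 3 (0.48), VE50 2 (0.95) or VE50 3 (0.71). The list's median per array was -0.15, 0.13 and 0.35 in VE100, against -0.37, -0.05 and 0.23 in VE50, overlapping between doses. The list's median difference was 0.098 without VE50 1 and 0.12 without VE100 3. Alas1, which catalyses the first step of heme synthesis, was at -0.75 ± 0.30, but short of the criterion without VE100 1 (-0.48), VE100 2 (-0.70), VE50 1 (-0.75) or VE50 2 (-0.64). Gpx4, which reduces lipid peroxides, differed by -0.80 ± 0.33, short of the criterion without VE100 1 (-0.82), VE100 3 (-0.64) or VE50 1 (-0.42). The median was -0.06 over 27 conjugation enzymes, 2 of them past and lower, and -0.11 over 24 NRF2 targets and glutathione genes, 1 past and lower. Without VE100 1 the conjugation list had a median of -0.345 with 7 past.

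Amino acid catabolism showed a lean that rested on single arrays. Of 27 measured genes of the urea cycle and amino acid breakdown 24 lay above 0, with a median of 0.30, and 0 passed the criterion. The list's median per array was -0.53, 0.29 and 0.70 in VE100, against -0.47, -0.24 and 0.26 in VE50. VE100 1 was the lowest of the 6 arrays and VE100 3 the highest, so the spread within VE100 was wider than the difference. Without VE100 3 the median difference was 0.00 with 0 past, and without VE100 1 it was 0.72 with 9 past. Asl, argininosuccinate lyase of the urea cycle, had 13.28, 14.60 and 15.60 in VE100, against 13.40, 13.47 and 14.32 in VE50, with overlapping arrays and a log2 difference of 0.76 ± 0.50. Markers of pericentral hepatocytes, with a median of 0.29 and 0 of 13 past, ordered the arrays in a like way, at -0.31, 0.16 and 0.63 in VE100, against -0.58, -0.13 and 0.30 in VE50. The pericentral median difference was 0.035 without VE50 1 and 0.475 without VE100 1, and 3 members passed without VE50 3.

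Macrophage genes had lower signal in VE100. Of 28 measured Kupffer cell and macrophage genes 27 differences lay below 0 and 1, Trem2, above, with a median of -0.53. Past the criterion were 7 of 28, all lower, set against 2.68% of all single-symbol probe sets past and lower. Spi1, the gene of PU.1, the transcription factor that specifies the macrophage lineage, had 7.55, 7.16 and 6.61 in VE100, against 9.75, 9.65 and 7.79 in VE50. VE50 3 lay near the VE100 arrays and the other VE50 arrays lay far above. The mean was 7.11 ± 0.47 in VE100 and 9.06 ± 1.10 in VE50, a log2 difference of -1.96 ± 0.48 (95% interval -3.02 to -0.89), or 3.88-fold lower, the largest among the genes chosen by the rule. With any 1 array left out the difference ran from -2.59 to -1.61, past the criterion each time. Spi1 lay above the negative controls' 95th percentile on 0 of the 3 VE100 arrays and on 2 of the VE50 arrays.

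Spic, a related factor of red pulp macrophages and Kupffer cells, had 4.30, 3.92 and 3.37 in VE100, against 5.57, 5.05 and 4.60 in VE50. Cd68, a lysosomal macrophage protein gene, had 5.59, 6.07 and 5.68 in VE100, against 7.61, 6.94 and 6.09 in VE50. Tyrobp, an adaptor of myeloid receptors, had 4.81, 3.88 and 3.57 in VE100, against 5.36, 5.25 and 4.77 in VE50. For Spic and Cd68 the doses did not overlap, for Tyrobp VE100 1 lay above VE50 3, and the log2 differences were -1.21 ± 0.31, -1.10 ± 0.35 and -1.04 ± 0.32 in the order given.

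Markers of resident Kupffer cells varied widely within each dose. Cd5l, a protein that Kupffer cells secrete, had 8.19, 8.10 and 6.40 in VE100, against 10.28, 9.27 and 7.97 in VE50, and Vsig4, their complement receptor, had 7.05, 6.85 and 5.58 in VE100, against 7.66, 7.45 and 6.98 in VE50. VE50 1 was the highest and VE100 3 the lowest array for both, and the log2 differences were -1.61 ± 0.59 for Cd5l and -0.87 ± 0.37 for Vsig4. Clec4f, a lectin of mouse Kupffer cells, differed by -0.48 ± 0.47, Csf1r, the receptor of their growth factor, by -0.43 ± 0.33, and Adgre1, the gene of F4/80, by -0.37 ± 0.21.

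The list's median per array was 0.01, -0.17 and -0.69 in VE100, against 0.81, 0.22 and -0.22 in VE50. The array order was similar to that of fatty acid synthesis, with VE100 3 lowest and VE50 3 among the VE100 arrays. Without VE100 3 the median difference was -0.26 with 4 members past, without VE50 1 it was -0.31 with 4, and without VE50 3 it was -0.82 with 13. Of the 28 genes 1 lay above the negative controls' 95th percentile on all 6 arrays and 22 on none, so most of these signals are near background.

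Other immune lists held fewer such genes. Cfp, the complement factor properdin made by myeloid cells, had 7.48, 7.35 and 6.44 in VE100, against 8.53, 8.42 and 7.72 in VE50, a log2 difference of -1.13 ± 0.32 without overlap. Tnfrsf1a, the receptor for tumour necrosis factor on most cells, had 7.88, 8.06 and 7.73 in VE100, against 9.35, 9.95 and 8.18 in VE50, a log2 difference of -1.27 ± 0.38. VE50 3 was again the VE50 array nearest to VE100. Klra2, a gene of the killer cell lectin-like receptor family, differed by -1.13 ± 0.33, and Rin3, a Rab5 regulator gene, by -1.14 ± 0.43 (-0.58 without VE50 2 and -0.94 without VE100 2, short of the criterion).

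Of 32 measured interferon-stimulated and antigen processing genes 26 lay below 0, with a median of -0.25. Past the criterion were 5, all lower, set against 2.68% of all single-symbol probe sets past and lower. Of the 32 genes, 25 lay above the negative controls' 95th percentile on no array. Rtp4, an interferon-induced transporter protein gene, had 4.22, 4.90 and 4.98 in VE100, against 5.86, 5.67 and 5.52 in VE50, and Xaf1, an interferon-induced gene linked to apoptosis, 5.19, 4.49 and 4.93 in VE100, against 5.93, 5.68 and 5.66 in VE50. Both separated the doses and kept the criterion under each omission, at -0.98 ± 0.25 and -0.89 ± 0.24, but neither lay above the negative controls' 95th percentile on any array. The list's count ran from 2 without VE50 3 and 3 without VE50 1 to 8 without VE100 1. Irf1, the leading regulator on the other side, differed by 0.17 ± 0.24.

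Lymphocyte and natural killer cell markers (3 of 17 past, 1 higher and 2 lower) and neutrophil markers (1 of 12 past) had medians of -0.02 and -0.06, and 0 members of either list lay above the negative controls on any array. For these lists and those that follow, the share past over all single-symbol probe sets was 5.05%. Acute phase genes had a median of -0.01, with 15 above and 15 below 0 and 3 of 30 past, or 10 past without VE100 1. Il6ra, the interleukin-6 receptor, had 8.97, 10.66 and 10.29 in VE100, against 8.63, 8.11 and 9.18 in VE50. VE100 1 lay below VE50 3 and the other VE100 arrays above all VE50 arrays, and the log2 difference of 1.33 ± 0.42 passed under each omission. Complement and coagulation genes had a median of 0.01, with 0 of 29 past, and stellate cell and matrix genes a median of 0.02, with 1 of 23 past, or 4 past without VE100 1 or VE50 3.

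Cytoskeletal genes had lower signal in VE100. Of 17 measured tubulin and actin system genes 15 lay below 0, with a median of -0.66, and 7 passed the criterion, all lower, set against 2.68% of all single-symbol probe sets. Tubb4b, a widely expressed β-tubulin, had 6.93, 6.00 and 6.78 in VE100, against 8.38, 8.87 and 7.48 in VE50. Tuba1b, an α-tubulin, had 7.72, 7.10 and 8.04 in VE100, against 8.58, 8.69 and 8.46 in VE50. The doses did not overlap for either, and the log2 differences were -1.67 ± 0.37 for Tubb4b and -0.96 ± 0.26 for Tuba1b, past the criterion under each omission. Tubb4b lay above the negative controls' 95th percentile on 0 VE100 arrays and 1 VE50 array, and Tuba1b on 2 and 3.

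Actb, the cytoplasmic β-actin often used as a loading standard, had 17.75, 17.66 and 17.65 in VE100, against 18.58, 18.27 and 17.93 in VE50. Its VE100 arrays lay within 0.10 of each other below the VE50 arrays, and the log2 difference was -0.57 ± 0.22. Pfn1, the actin-binding profilin, had 12.31, 12.41 and 12.24 in VE100, against 12.97, 13.40 and 12.57 in VE50, a log2 difference of -0.66 ± 0.24 that was -0.45 without VE50 2 and -0.62 without VE100 3, where it did not pass. Tmsb4x and Tmsb10, which sequester actin monomers and are abundant in blood-derived cells, differed by -1.20 ± 0.48 and -1.26 ± 0.49, with VE50 3 inside the VE100 range for both. Arpc4, a subunit of the actin-nucleating Arp2/3 complex that is not in the list, had 8.79, 9.07 and 9.54 in VE100, against 10.73, 10.39 and 9.60 in VE50, a log2 difference of -1.11 ± 0.32.

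The list's median per array was -0.12, -0.67 and -0.32 in VE100, against 0.48, 0.60 and -0.05 in VE50. The VE50 arrays lay above the VE100 arrays, VE50 3 close to VE100 1, and this was 1 of 6 lists of 42 whose array medians did not overlap. The rest of the 6 were the heme, conjugation, NRF2, translation factor and skeletal muscle lists. Among single-symbol probe sets 10% did not overlap. With any 1 array left out the median difference of the tubulin and actin list stayed between -0.82 and -0.51 and its count between 3 (without VE50 1 or VE50 2) and 11 (without VE100 1). The count was 4 without VE100 2 or VE100 3 and 10 without VE50 3. The macrophage list also lay lower in VE100, and its part in the cytoskeletal difference was not tested. Tubulins are a family of near-identical members, and the cross-hybridisation of their probes cannot be judged from the deposited files.

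**Figure D3:**
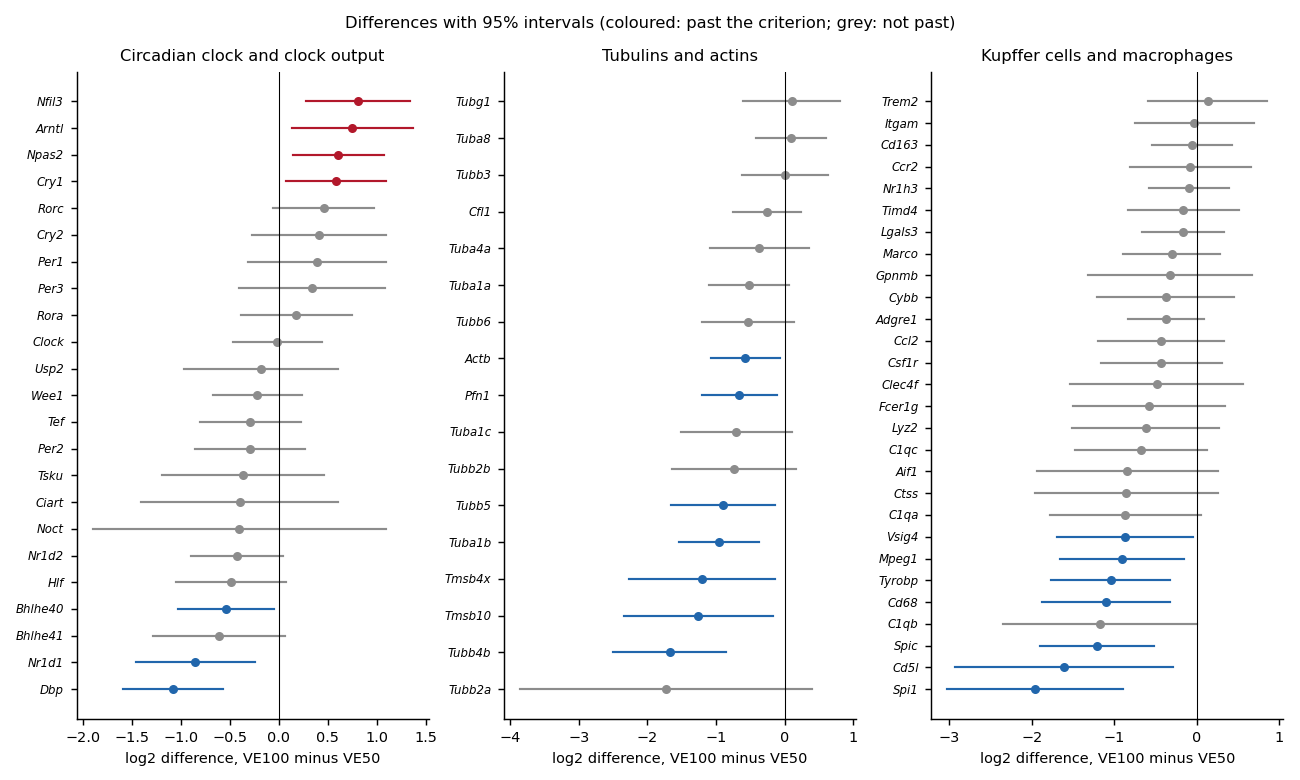
Log2 differences, VE100 minus VE50, with 95% intervals from the limma fit for every measured gene of the clock, tubulin and actin, and macrophage lists; red and blue mark genes past the study's criterion and higher or lower in VE100, and grey marks the rest. The clock genes past the criterion lie on both sides of 0 (Nfil3 at 0.81, Dbp at -1.08), whereas all such genes of the other lists lie below 0.

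Translation genes included the smallest p of the lower side. Eef1b2, a subunit of the factor that recharges elongation factor 1A, had 13.35, 13.51 and 13.54 in VE100, against 14.86, 14.89 and 14.23 in VE50. The VE100 arrays lay within 0.19 of each other, all below VE50, and the log2 difference was -1.19 ± 0.24 (95% interval -1.72 to -0.67). The limma p was 5.02e-04 unadjusted and 0.951 adjusted. Rpl29, a large-subunit ribosomal protein gene, has 2 probe sets, both lower in VE100, of which 1 passed the criterion: the brighter differed by -1.23 ± 0.31 and the other by -0.49 ± 0.27 (95% interval -1.09 to 0.10). The names of the Rpl29 probe sets carry different chromosome numbers, so the one that passed may read a copy and not the gene itself. Eef1b2 and Rpl29 have many near-identical copies in the genome, so their probe sets may read more than 1 locus. Of the 27 measured genes of the ribosomal protein list, which does not hold Rpl29, 21 lay below 0, with a median of -0.25 and 0 past. The median was -0.04 without VE50 1 and -0.06 without VE100 1. Of 22 translation factors 15 lay below 0, with a median of -0.14, and Eef1b2 alone passed.

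Stress and growth genes on the lower side stood mostly alone in their lists. Inhbe, which encodes the liver-secreted activin E subunit, had 9.71, 11.05 and 9.20 in VE100, against 11.33, 11.97 and 11.32 in VE50. VE100 2 lay nearest to the VE50 arrays, and the log2 difference was -1.55 ± 0.42 (95% interval -2.49 to -0.62), past the criterion under each omission. It was the 1 gene past among 20 measured genes of the ATF4 stress response, whose median was 0.03. Phlda1, a growth factor-induced gene, had 5.67, 5.94 and 5.71 in VE100, against 6.55, 7.58 and 8.40 in VE50. The VE100 arrays lay close together and the VE50 arrays were spread upward, with a log2 difference of -1.74 ± 0.39. Phlda1 lay above the negative controls' 95th percentile on no array. It was the 1 past among 23 immediate early genes, 18 of which lay below 0. On no array did 18 of the 23 lie above that percentile.

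The remaining genes of the lowest group were Hsd17b6, a steroid dehydrogenase, at -1.28 ± 0.44 (-0.86 without VE100 2 and -0.85 without VE50 1, short of the criterion), Cenpq, a kinetochore protein gene, at -1.25 ± 0.33, Prss8, a membrane serine protease gene, at -1.21 ± 0.28, and St3gal3, a sialyltransferase, at -1.20 ± 0.37. St3gal3 and Hsd17b6 lay above the negative controls on all VE50 arrays, and Cenpq and Prss8 on none. Of 28 measured cell cycle and DNA replication genes 21 lay below 0, with a median of -0.23. Past the criterion were 3, all lower, set against 2.68% of all single-symbol probe sets past and lower. Of the 28 genes, 27 lay above the negative controls' 95th percentile on no array, among them the 3 past, so these signals are near background. The list's count was 0 without VE100 2, VE100 3 or VE50 1 and 5 without VE50 3. Of the 3 genes past, Mcm2, a subunit of the replicative helicase, was at -0.77 ± 0.29 and did not pass without VE100 2 (-0.57), VE100 3 (-0.65) or VE50 1 (-0.71). Cox6a1, a subunit of cytochrome c oxidase, was at -0.80 ± 0.25, the 1 past among 31 respiratory chain genes with a median of -0.04.

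Lists of protein folding and turnover showed no gene past the criterion: 0 of 19 in the unfolded protein response (median 0.04), 0 of 17 among heat shock chaperones (median -0.09) and 0 of 26 proteasome subunits (median 0.03). Markers of fat cells (0 of 11) and pancreas (0 of 13) also had none past, with medians of -0.03 and -0.04. Skeletal muscle markers had 3 of 16 past, all higher, set against 2.37% of all single-symbol probe sets past and higher. Their medians per array were 0.25, 0.04 and 0.02 in VE100, against -0.11, 0.00 and -0.20 in VE50, without overlap. All 16 lay at or below the negative controls' 95th percentile on every array, so this list exceeded that share with signals near background. Sinusoidal and vascular endothelial genes had 3 of 21 past, set against 5.05% of all single-symbol probe sets, and a median of -0.14. Of the 21 genes, 16 lay above the negative controls' 95th percentile on no array. Eng, an endothelial TGF-β co-receptor, at -0.87 ± 0.33 and Stab1, a scavenger receptor, at -0.60 ± 0.22 were lower, and Fcgr2b, an Fc receptor, at 0.64 ± 0.24 was higher. Each lost the criterion under at least 2 of the 6 omissions, Eng at -0.50 without VE100 1 and -0.68 without VE50 2. Slc39a4, a zinc importer, at -1.27 ± 0.49 was the 1 past among 22 genes of iron, zinc and copper handling, and it did not pass without VE100 2 (-0.98), VE100 3 (-1.06), VE50 1 (-0.80) or VE50 2 (-1.30). Genes of RNA splicing (CLK kinases, SR proteins and hnRNPs) had 2 of 29 past, both higher, with a median of 0.10, cholangiocyte markers 1 of 13 with a median of -0.21, red blood cell markers 1 of 8 with a median of -0.02 and periportal hepatocyte markers 0 of 15 with a median of 0.06. Without VE100 1 the periportal median was 0.27 with 6 past, and without VE50 3 there were 3 past.

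Over all 42 lists 877 of 917 distinct genes were measured, and 75 of them passed the criterion (8.55%), against 5.05% of all single-symbol probe sets. The lists were drawn up with earlier results of these data known, so this share is a description and no evidence that pathway genes differed more than others. The list medians lay below 0 for 26 of the 42.

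**Figure D4:**
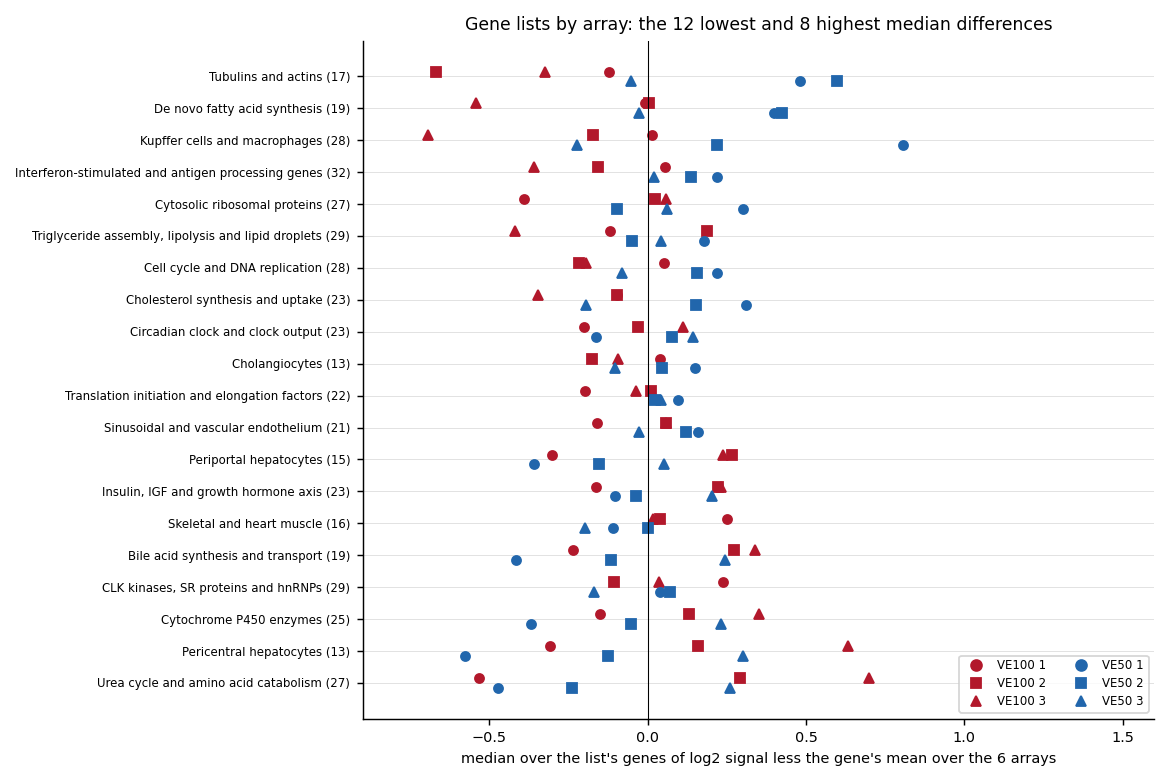
For the 12 lists of lowest and the 8 of highest median difference, each symbol is an array's median over the list's genes of log2 signal less the gene's mean over the 6 arrays (VE100 red, VE50 blue, drawn just above and below the line of each list; circle, square and triangle for arrays 1, 2 and 3; number of genes in brackets). The tubulin and actin arrays do not overlap between doses, whereas for macrophage and fatty acid synthesis genes VE50 3 lies among the VE100 arrays and for urea cycle genes VE100 1 lies lowest.

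The array VE50 3 was often the VE50 array closest to VE100. It lay nearest to the VE100 mean for 36.9% of all probe sets, for 43.1% of the 1078 single-symbol probe sets past the criterion and for 12 of the 15 lowest genes, against 4 of the 15 highest. With VE50 3 left out 5.74% of all probe sets passed the criterion and 60.9% of them were lower in VE100, against 5.04% and 53.6% with all 6 arrays. The adjusted count stayed at 0 without it, at a smallest adjusted p of 0.329.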

How the data were processed

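Per the series' design text, the authors normalised the arrays by SST-RMA in Transcriptome Analysis Console 4.0.2, and deposited a sheet of log2 signals with a value for each probe set on each array. Between-array normalisation is part of that step, so shifts in total RNA between groups are not preserved. The deposited value table of the series, also log2, correlated best with the array of the same name in each case and supplied the control probe sets. No detection calls, batch, scan date or genome build are given in the sources used here, and the number of arrays limits the precision.

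A model with a mean per dose was fitted to the 6 arrays over 22206 probe sets with limma 3.58.1 (lmFit, eBayes) in R 4.3.3. All p-values are two-sided and from limma, with Benjamini-Hochberg adjustment over all probe sets. Differences are VE100 minus VE50 on the log2 scale with the standard error of the fit; group values are means with SD over 3 arrays. The steps were tested on simulated data. Symbols are the authors': 836 probe sets carry several, 3 none and 27 a date. A gene in a list enters with its brightest probe set. Named genes were the 15 highest and 15 lowest differences of above-median signal past the criterion without overlap, the smallest p-values in each direction, and up to 4 members of each list past the criterion, or the nearest to it; predicted genes were not named, and some genes that the rule takes are not reported here. Members and lists were chosen with earlier results of these data known. Genes named in addition, among them Clock, Per1, Per2, Irs2, G6pc, Asl, Acaca, Scd1, Actb, Arntl, Cry1, Bhlhe40, Elovl5, Cd5l, Vsig4, Clec4f, Csf1r, Adgre1, Tmsb4x and Tmsb10, were chosen after their values were seen. Promoters are RefSeq windows of GRCm38.p6, matched by symbol. Alternatives were the other 3 arrays in the fit, a replicate block, a signal filter, median centring, quantile normalisation, the deposited value table, array weights, a variance trend and leaving out each array.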

Additional observations from a re-analysis of the deposited data

How the results depend on the processing

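Under every alternative, 0 probe sets passed the adjusted threshold in limma, and the smallest adjusted p ran from 0.329 (without VE50 3) to 0.9997. With all 9 arrays in the fit 647 probe sets passed the study's criterion (330 higher, 317 lower), 625 of them with a single symbol (323 higher, 302 lower). Among probe sets above the median signal alone 495 passed (182 higher, 313 lower), 476 of them with a single symbol (178 higher, 298 lower), out of 11100 tested. Leaving out 1 array gave 882 (without VE50 1) to 1309 (without VE100 1). Whether the replicate numbers pair the samples was not settled by the values. Deviations of same-numbered arrays correlated at 0.13, -0.06 and 0.21, and those of differently numbered arrays at -0.23 to 0.09. With the replicate block 1311 probe sets passed, at a smallest adjusted p of 0.403. Of the 116 named genes 84 passed, and of their 1165 values under the alternatives 952 kept the criterion, 213 lost it and 0 changed sign; 35 genes passed under all. Among genes not past, the sign turned over single omissions for Abcc4 (-0.16 without VE100 1 to 1.19), Tubg1 (-0.11 to 0.42; -0.053 without VE100 3 and -0.017 without VE50 3), Mlxipl (-0.22 to 0.78) and Hamp (-0.37 to 1.23), both lowest without VE50 1, Bag3 (-1.002 to 0.018, without VE50 2) and Trem2 (-0.11 without VE50 3 to 0.47). The causes were not tested.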

Other observations

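Genes with large differences but overlapping arrays fell outside the naming rule, and those given here were chosen after their values were seen. Hacl1, a peroxisomal lyase of fatty acid alpha-oxidation, had log2 signals of 12.85, 14.56 and 14.43 in VE100, against 12.59, 12.21 and 13.18 in VE50, a log2 difference of 1.29 ± 0.43 (SE). Acot3, an acyl-CoA thioesterase, had 12.72, 13.89 and 12.16 in VE100, against 11.46, 11.51 and 12.31 in VE50, a log2 difference of 1.16 ± 0.41. VE100 2 was the highest array for both, as for Cyp4a14, and 1 VE100 array of each lay below VE50 3.

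Sult1e1, the oestrogen sulfotransferase, had 13.67, 14.15 and 15.14 in VE100, against 11.65, 12.29 and 14.38 in VE50, a log2 difference of 1.55 ± 0.62. Elovl3, a fatty acid elongase, had 8.47, 10.59 and 11.36 in VE100, against 7.47, 8.61 and 9.63 in VE50, a log2 difference of 1.57 ± 0.70. In both, VE50 3 lay above VE100 1, and VE100 3 was the highest of the 6 arrays.

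On the lower side, Ly6d, a surface protein gene, had 11.84, 9.60 and 7.94 in VE100, against 13.27, 11.97 and 10.77 in VE50, a log2 difference of -2.21 ± 0.87, and Ly6e, an interferon-inducible relative, had 13, 12.22 and 12.12 in VE100, against 14.70, 14.55 and 12.98 in VE50, a log2 difference of -1.63 ± 0.43. Ucp2, a mitochondrial carrier gene, had 9.31, 8.60 and 6.80 in VE100, against 10.71, 9.78 and 8.97 in VE50, and Angptl8, an insulin-induced inhibitor of lipoprotein lipase activity, had 6.80, 6.63 and 8.17 in VE100, against 7.95, 8.92 and 9.03 in VE50. The log2 differences were -1.58 ± 0.60 for Ucp2 and -1.43 ± 0.42 for Angptl8. For each of these 4 genes 1 VE100 array lay above the lowest VE50 array, and the limma adjusted p was 0.951.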
